A study of Mus musculus with 2 samples.

Results

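The genes described here encode the enzymes of V(D)J recombination and the core of classical nonhomologous end joining. There were 10 of them, *Rag1*, *Rag2*, *Dntt*, *Xrcc5*, *Xrcc6*, *Prkdc*, *Dclre1c*, *Lig4*, *Xrcc4* and *Nhej1*, of 20250 named protein-coding genes, and they were chosen by name for their roles. They were represented by 13 of the 26968 protein-coding (NM_) rows of the deposited RNA-seq table. Steady state RNA was measured in *Ebf1* -/- pre-pro-B cells, which lack early B-cell factor 1 and came from female fetal livers, and in *Rag2* -/- pro-B cells, which lack part of the recombinase itself and came from the bone marrow of adult males. Both were of C57BL/6 background and grew on OP-9 stromal cells, a bone marrow stromal line, the pre-pro-B cells with Il-7, Scf and Flt3l and the pro-B cells with Il-7 alone. Each cell type was represented by 1 library, sequenced to a nominal 90 M reads, so no difference between them could be set against replicate error, and cell type cannot be told apart from genotype, sex, age, tissue of origin and cytokines.

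Recombination of the antigen receptor genes begins when Rag1 and Rag2 together cut the DNA beside a pair of gene segments, leaving hairpins on the coding ends. The Ku heterodimer, encoded by *Xrcc6* and *Xrcc5*, holds the broken ends and recruits the kinase encoded by *Prkdc*, which activates the hairpin-opening nuclease Artemis (*Dclre1c*). Terminal transferase (*Dntt*) adds nucleotides without a template at the junction, and DNA ligase IV (*Lig4*) seals it with its partner *Xrcc4* and with the XLF protein (*Nhej1*). In B cell development the heavy chain locus is the first to be joined, beginning at about the stage of these cells, and Rag2 deficient cells cannot carry it out.

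Of the 10 genes, 3 were higher by 2-fold or more in pro-B cells, *Rag1*, *Lig4* and *Nhej1*, and 1 was at least 2-fold lower, *Dntt*. The other 6 lay within 2-fold, from -0.57 (*Rag2*) to 0.77 (*Xrcc6*) on the log2 scale. *Rag2* is the gene disrupted in the pro-B cells, so its place in these counts is not independent of the genotype. The values are fragments per kilobase of transcript, scaled to the mapped fragments of the library (FPKM), summed over the transcripts of a gene, and the changes are log2 ratios of FPKM + 1, pro-B over pre-pro-B. Among all 10528 genes that reached an FPKM of 1 in either library, called all genes in what follows, 12.2% were higher by 2-fold or more in pro-B cells, 19.1% were at least 2-fold lower and 68.7% lay within 2-fold. The median change was 0.54 for the 10 genes and -0.14 for all genes. The changes of 8 of the 10 genes, the 7 end joining genes among them, were above 0, as were those of 42.6% of all genes, and 5 of these 7 lay within 2-fold.

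Each transcript also carries the limits of a 95% confidence interval from the model of Cuffdiff, and these intervals are wide. For none of the 12 member transcripts that reached an FPKM of 1 in either library did the intervals of the cell types lie apart. The same held for the thirteenth. Of all 12850 transcripts that reached that FPKM, 4.38% had intervals apart, a share at which none of 12 does not set the members apart. The changes below are differences between 2 libraries. Positions are the loci of the deposited table on mm9, counted from 1, and a locus covers every transcript that overlaps, so that it may reach past the gene. As background for the labels, all 6 markers of the committed B lineage were higher by 2-fold or more in pro-B cells, their FPKM summing to 4.99 in the pre-pro-B library and 1900 in the pro-B library, and all 3 progenitor markers (*Kit*, *Flt3* and *Cd34*) were lower, with sums of 944 and 2.82. The pre-pro-B library also held the RNA of genes that mark other cells. Its summed FPKM was 306 for 3 plasmacytoid dendritic markers (3.49 in the pro-B library), 77.1 for 6 T lineage markers (3.13) and 61.0 for 6 myeloid markers (6.52). Of these, *Ccr9*, *Siglech*, *Lck*, *Cd3g* and *Mpo* held most of the sums, while *Elane* was listed at 0 in both libraries and *Cd3d*, *Cd3e*, *Cd8a*, *Csf1r* and *Cd14* stayed under an FPKM of 1. The 6 OP-9 stromal markers summed to 17.7, of which *Pdgfrb* gave 15.9, and to 7.78. Without *Pdgfrb* they leaned the other way, since *Col1a2* (0.707 and 2.82), *Col3a1* (0.242 and 1.13), *Cxcl12* (0.618 and 2.92) and *Col1a1* (0.207 and 0.522) were higher in the pro-B library, and *Postn* was listed at 0 in both. In bulk RNA, fewer cells of a type and less RNA per cell cannot be told apart, and the part of these markers in the results below was not tested.

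**Figure D1:**
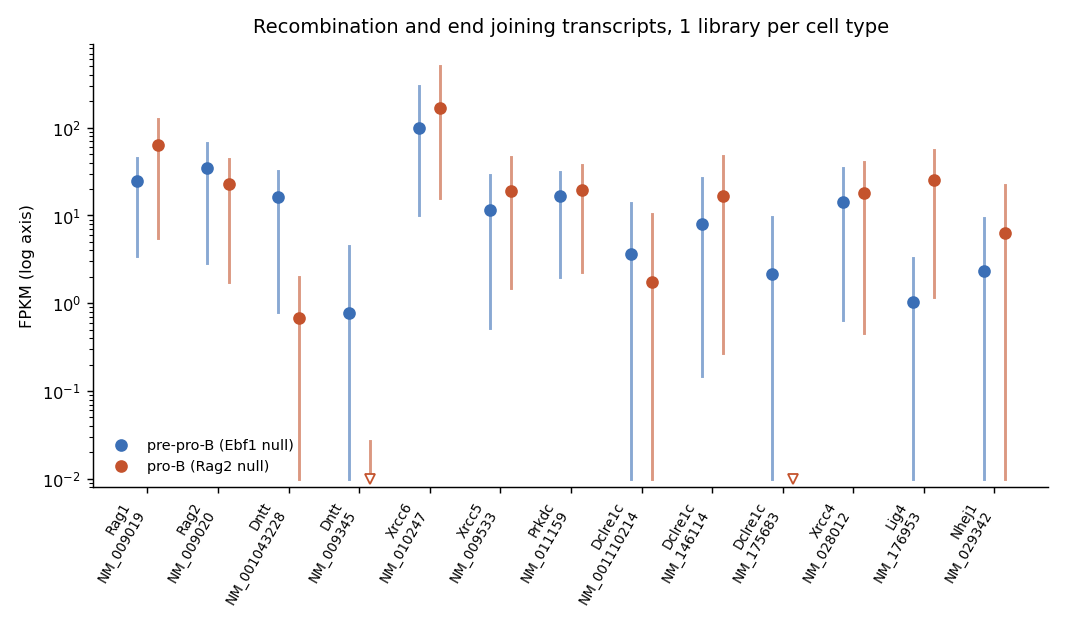
FPKM of the 13 transcripts (log axis) in pre-pro-B cells (blue) and pro-B cells (red), with 1 library per cell type. Points are the deposited FPKM, lines the Cuffdiff 95% confidence intervals (cut at 0.01 where the lower limit is 0), and open triangles mark an FPKM listed at 0; *Lig4* and *Dntt* differ most between the cell types, and each pair of intervals overlaps or meets at 0.

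The recombinase genes lie side by side on chromosome 2 of mm9, *Rag1* on the minus strand (101478411 to 101489689) and *Rag2* on the plus strand, with its end at 101472685, so that they are transcribed towards each other. The locus given for *Rag2* begins at 101400938 and takes in its other neighbour *Iftap*, which had an FPKM of 0.559 in the pre-pro-B library and 0.966 in the pro-B library. *Rag1* encodes the subunit that binds the recombination signals and cuts. Its FPKM was 24.4 in the pre-pro-B library (interval 3.44 to 45.6) against 64.4 in the pro-B library (interval 5.51 to 125), a log2 change of 1.36 that is larger than that of 91.8% of all genes. *Rag2*, which encodes the partner that completes the recombinase and reads methylated histone H3, did not follow. Its FPKM was 34.5 in the pre-pro-B library (interval 2.88 to 66.7) against 22.9 in the pro-B library (interval 1.75 to 44.3), a log2 change of -0.57. *Rag2* thus stood above *Rag1* in pre-pro-B cells, where the ratio of *Rag1* to *Rag2* FPKM was 0.708, and below it in pro-B cells, where the ratio was 2.82.

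*Rag2* is also the gene that is inactivated in the pro-B cells, and its FPKM there was not at 0. The labels do not say which part of the gene the null allele lacks. In the GENCODE annotation of mm9 the longest *Rag2* transcript has 3423 bases, of which 46.2% are coding, and the FPKM does not show which part of it the reads came from. The other disrupted gene, *Ebf1*, likewise had an FPKM of 64.0 in the library of *Ebf1* null cells, against 273 in pro-B cells. Both *Rag* genes were above the middle of the range in both libraries. Among all genes, *Rag1* stood at percentile 69.3 in the pre-pro-B library against 90 in the pro-B library, and *Rag2* at 78.4 and 68.6.

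The 250 bases before the start of each *Rag* gene are shown, from the RefSeq promoter table and placed on mm9 by exact match. The change of *Rag2* lay within 2-fold, and a link between these sequences and the changes of the *Rag* genes was not tested. Capitals mark an E box (CANNTG, the core bound by E proteins such as E2a) or the letters GAGGAA (the core of PU.1 sites), read on both strands.
*Rag1*, chr2:101489690-101489939, minus strand: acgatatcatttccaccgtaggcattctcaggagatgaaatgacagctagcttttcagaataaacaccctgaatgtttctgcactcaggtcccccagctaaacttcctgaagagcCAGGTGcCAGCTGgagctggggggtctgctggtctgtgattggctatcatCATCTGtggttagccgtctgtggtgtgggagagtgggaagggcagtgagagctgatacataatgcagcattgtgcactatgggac
*Rag2*, chr2:101464619-101464868, plus strand: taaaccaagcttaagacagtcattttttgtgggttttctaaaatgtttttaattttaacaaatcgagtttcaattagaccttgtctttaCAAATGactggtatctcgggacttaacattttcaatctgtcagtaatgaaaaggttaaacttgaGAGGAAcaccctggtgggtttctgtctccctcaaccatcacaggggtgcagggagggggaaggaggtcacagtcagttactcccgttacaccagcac
The *Rag1* window holds 3 E boxes, CAGGTG from 135 to 130 bases before the start, CAGCTG from 128 to 123 and CATCTG from 85 to 80. The *Rag2* window holds 1, CAAATG from 161 to 156 bases before the start, and 1 match to GAGGAA, from 97 to 92. Such letters are common: of 32851 promoter windows of the same length, 66.2% hold an E box and 23.3% hold GAGGAA. Neither window holds the Ebf letters CCCNNGGG, found in 11.8% of all windows, or the forkhead letters GTAAACA, found in 3.17%. A match is a description of the letters and not evidence of binding.

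Among the 10 genes, *Dntt*, for terminal transferase, had the largest difference downward in pro-B cells. The summed FPKM of *Dntt* (chromosome 19, 41103765 to 41134015, plus strand) was 17.0 in the pre-pro-B library against 0.683 in the pro-B library. The plain FPKM was thus 24.9 times lower in the pro-B library, and the log2 change, taken on FPKM + 1, was -3.42. Only 2.75% of all genes had a change as low or lower. *Dntt* went from percentile 58.3 of all genes in pre-pro-B cells to percentile 9.66 in pro-B cells, where it was the lowest of the 10 genes. At the nominal read number, the main transcript corresponds to about 3019 fragments in pre-pro-B cells against 127 in the pro-B library. Low *Dntt* expression is a known feature of fetal lymphocytes, and here the cells of fetal origin had the higher value. The part of origin in this difference was not tested, since origin cannot be told apart from genotype, sex and cytokines here. Of the 3 plasmacytoid dendritic and 6 T lineage markers above, *Ccr9* had an FPKM of 212 in the pre-pro-B library against 0.661 in the pro-B library, and *Lck* had 38.0 and 3, so both were lower along with *Dntt*, and their part in its change was not tested.

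The 2 *Dntt* transcripts in the table differ by 60 bases in length, which equals exon 11 of the 12 exons of the longer form in the mm9 annotation. The exon is coding, lies at chr19:41133057-41133116 on the plus strand, and adds 20 codons to the protein near its end. It is shown because reads over it and over its junctions are what tells the forms apart.
Exon 11 of *Dntt*: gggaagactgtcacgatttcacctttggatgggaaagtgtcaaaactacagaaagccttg
The shorter form without this exon, NM_001043228, held nearly all of the signal. Its FPKM was 16.2 in the pre-pro-B library (interval 0.797 to 32.5) against 0.683 in the pro-B library (interval 0 to 2.00). The longer form, NM_009345, had an FPKM of 0.782 in the pre-pro-B library (interval 0 to 4.46), which is 4.60% of the gene, and was listed at 0 in pro-B cells. Its lower limit of 0 in both libraries leaves the level of the longer form unresolved.

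The 250 bases before the *Dntt* start are shown with E boxes in capitals, and their part in the change of *Dntt* was not tested.
*Dntt*, chr19:41103515-41103764, plus strand: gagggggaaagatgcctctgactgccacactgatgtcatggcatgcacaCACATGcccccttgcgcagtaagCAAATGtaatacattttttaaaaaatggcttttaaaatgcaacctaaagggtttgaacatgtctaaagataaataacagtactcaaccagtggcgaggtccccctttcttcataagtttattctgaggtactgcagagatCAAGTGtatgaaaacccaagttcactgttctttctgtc
The window holds 3 E boxes, CACATG from 201 to 196 bases before the start, CAAATG from 178 to 173 and CAAGTG from 38 to 33. None of the letters GAGGAA, CCCNNGGG and GTAAACA occur in it. Its GC content of 41.6% lies under the median of all promoter windows, 52.4%.

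Ligase IV showed the largest difference upward. The FPKM of *Lig4* (chromosome 8, 9970020 to 9976323, minus strand) was 1.04 in the pre-pro-B library (interval 0 to 3.26) against 25.1 in the pro-B library (interval 1.17 to 56.2). The ratio of the plain FPKM was 24.1, and the log2 change, taken on FPKM + 1, was 3.68. Of all genes, 98.9% had a smaller log2 change. *Lig4* was the lowest of the 10 genes in pre-pro-B cells, at percentile 4.97 of all genes, and the third highest in pro-B cells, at percentile 71.1. The values correspond to about 382 and 9221 fragments at the nominal read number, so that neither rests on a handful of reads, yet the intervals overlapped between 1.17 and 3.26. Its partner *Xrcc4*, which stabilizes the ligase, was nearly level. The FPKM of *Xrcc4* (chromosome 13, 89988519 to 90229213, minus strand) was 14.4 (interval 0.639 to 35.0) and 18.1 (interval 0.460 to 40.5), a log2 change of 0.31. The ratio of *Xrcc4* to *Lig4* FPKM was therefore 13.8 in the pre-pro-B library against 0.722 in the pro-B library.

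The RefSeq promoter table gives 2 starts for *Lig4*, and the window nearer to the start of the deposited transcript is shown, with its E box in capitals. The window reaches a few bases into that transcript, and distances are counted from the RefSeq start.
*Lig4*, chr8:9976312-9976561, minus strand: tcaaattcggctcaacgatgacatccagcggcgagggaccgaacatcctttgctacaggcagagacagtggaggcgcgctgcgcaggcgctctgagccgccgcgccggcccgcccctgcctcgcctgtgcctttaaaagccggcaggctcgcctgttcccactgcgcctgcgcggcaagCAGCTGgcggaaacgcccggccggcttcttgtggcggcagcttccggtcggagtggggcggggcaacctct
It holds 1 E box, CAGCTG from 71 to 66 bases before the start. With a GC content of 68.4% it differs in base composition from the *Dntt* and *Rag* windows, which have 41.6% (*Dntt*), 41.2% (*Rag2*) and 50.8% (*Rag1*). High GC is not particular to *Lig4*. Among the other members, *Xrcc4* had 68%, *Xrcc6* 65.2%, *Dclre1c* 54.8%, *Nhej1* 48.4% and *Xrcc5* 44.8%. The window of the other *Lig4* start, of 70.0% GC, holds 1 E box and 2 matches to GAGGAA on the opposite strand. There were 10 windows for 9 of the genes, with 2 for *Lig4* and no entry for *Prkdc*. Of these 10 windows, 9 held an E box, both *Lig4* windows being counted, and 66.2% of all promoter windows hold one. The *Xrcc4* window held none of the 4 motifs.

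**Figure D2:**
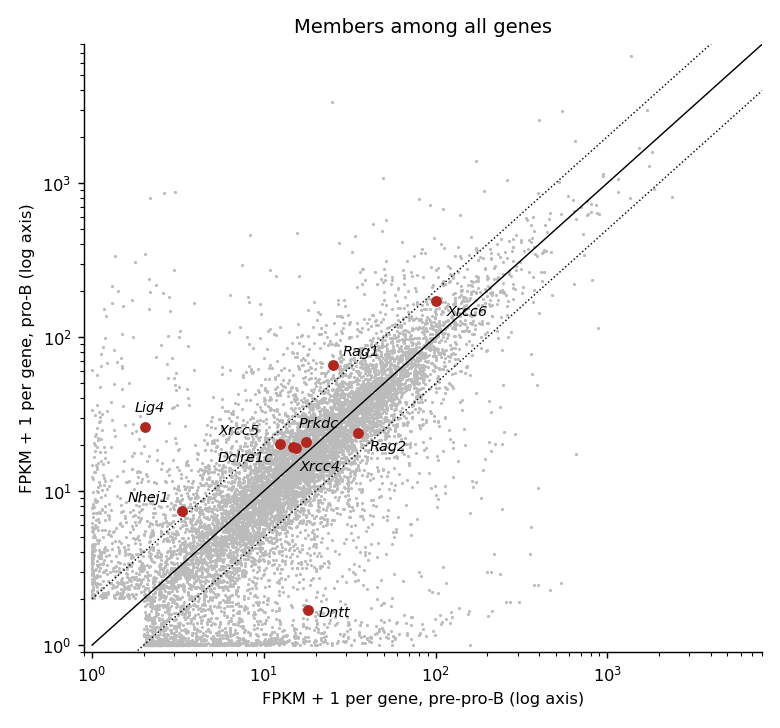
FPKM + 1 per gene in pre-pro-B cells (horizontal) and pro-B cells (vertical), both on log axes, for the 10528 genes with an FPKM of at least 1 in either library (grey) and the 10 genes (red). The solid line marks equal values and the dotted lines a 2-fold difference; *Lig4*, *Nhej1* and *Rag1* lie above the upper dotted line, *Dntt* far below the lower one, and the other 6 between them.

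*Nhej1*, whose product XLF helps align the ends for the ligase, was low in both cell types. Its FPKM (chromosome 1, 75013920 to 75121800, minus strand) was 2.33 in the pre-pro-B library (interval 0 to 9.27) against 6.39 in the pro-B library (interval 0 to 22.2), a log2 change of 1.15. It stood at percentiles 12.9 and 35.3 of all genes, ninth of the 10 in both libraries. The values correspond to about 197 and 539 fragments at the nominal read number, and both lower limits are 0.

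The Ku subunits bind broken ends as a heterodimer. *Xrcc6*, for Ku70 (chromosome 15, 81846799 to 81870514, plus strand), was the most abundant of the 10 genes in both libraries, with an FPKM of 99.1 in the pre-pro-B library (interval 10.2 to 301) against 170 in the pro-B library (interval 15.7 to 503). *Xrcc5*, for Ku80 (chromosome 1, 72353995 to 72441527, plus strand), had an FPKM of 11.4 (interval 0.526 to 28.7) and 19.2 (interval 1.51 to 46.7). Both lay within 2-fold with similar log2 changes of 0.77 and 0.70. The ratio of *Xrcc6* to *Xrcc5* FPKM was nearly the same in the cell types, 8.68 in the pre-pro-B library against 8.83 in the pro-B library, although the proteins pair in equal numbers. No copy of 200 or more matching bases was found elsewhere in mm9 for the transcripts of *Xrcc6*, *Xrcc5* or the other 8 genes. Each aligned to its own gene, and shorter matches elsewhere were not counted.

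*Prkdc*, for the catalytic subunit of the DNA-dependent protein kinase, lies on chromosome 16 (15637959 to 15842332, plus strand) and has the longest transcript of the 10 genes. Its FPKM was 16.6 in the pre-pro-B library (interval 1.98 to 31.3) against 19.7 in the pro-B library (interval 2.29 to 37.4), a log2 change of 0.24 and the smallest of the 10. *Dclre1c*, for Artemis (chromosome 2, 3341403 to 3392258, plus strand), had a summed FPKM of 13.8 and 18.3, a log2 change of 0.38, which became 0.95 when the most abundant transcript alone was used. The ratio of *Prkdc* to *Dclre1c*, which act together on the hairpins, was 1.20 in the pre-pro-B library against 1.08 in the pro-B library.

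The 3 transcripts of *Dclre1c* differed in direction. NM_146114 had an FPKM of 8.08 in the pre-pro-B library (interval 0.148 to 26.4) against 16.6 in the pro-B library (interval 0.274 to 48.0), and its share of the gene was 58.4% and 90.4%. NM_001110214 went from 3.6 (interval 0 to 13.9) to 1.76 (interval 0 to 10.3), or from 26.1% to 9.59% of the gene. NM_175683 had an FPKM of 2.15 in the pre-pro-B library (interval 0 to 9.53) and was listed at 0 in pro-B cells, with a status of OK. The intervals of all 3 overlapped or met at 0, and the FPKM of overlapping transcripts come from a division of shared reads by Cuffdiff.

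**Figure D3:**
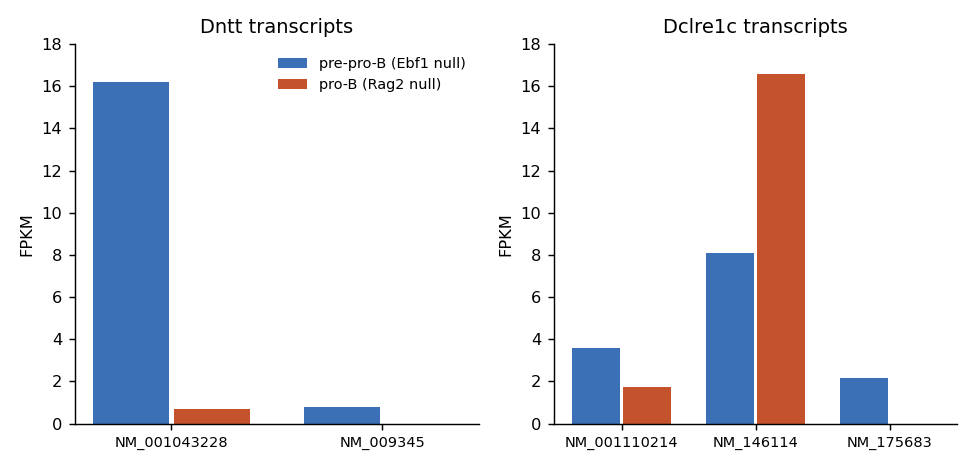
FPKM of the 2 *Dntt* transcripts and the 3 *Dclre1c* transcripts in pre-pro-B cells (blue) and pro-B cells (red), from 1 library each and without error bars. NM_001043228 accounts for nearly all of *Dntt* (16.2 and 0.683), and NM_146114 carries most of *Dclre1c* in pro-B cells; NM_009345 and NM_175683 are listed at 0 there.

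FPKM are corrected for transcript length, so the levels of the genes can be set beside each other within a library. In pre-pro-B cells *Xrcc6* was followed by *Rag2* and *Rag1*, then by *Dntt*, *Prkdc*, *Xrcc4*, *Dclre1c* and *Xrcc5* between 17.0 and 11.4, and by *Nhej1* and *Lig4*. In pro-B cells *Xrcc6* was followed by *Rag1*, then by *Lig4*, *Rag2*, *Prkdc*, *Xrcc5*, *Dclre1c* and *Xrcc4* between 25.1 and 18.1, and by *Nhej1* and *Dntt*. With *Xrcc6* and *Nhej1* left out after their values were seen, the other 5 end joining genes *Xrcc5*, *Prkdc*, *Dclre1c*, *Lig4* and *Xrcc4* spanned 18.1 to 25.1 in the pro-B library, whereas in the pre-pro-B library *Lig4* had 1.04 and the others 11.4 to 16.6. No neighbours in either order, taken by the main transcript of each gene, had intervals that lay apart. Of the 45 pairs in each library, the intervals lay apart for 3 in the pre-pro-B library, *Xrcc6* above *Nhej1* and *Lig4* and *Rag1* above *Lig4*, and for 3 in pro-B cells, *Xrcc6*, *Rag1* and *Prkdc* above *Dntt*.

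Other genes of the pathway were taken from 5 lists by function, whose counts stand beside 12.2% higher and 19.1% lower among all genes. Of 9 accessory factors of end joining, 2 were higher by 2-fold or more in pro-B cells, 0 were lower and 7 lay within 2-fold, with a median log2 change of -0.28. *Polm*, for polymerase mu, which belongs to the same family as terminal transferase and fills gaps at coding ends, had an FPKM of 1.09 in the pre-pro-B library against 14.6 in the pro-B library, a log2 change of 2.90. *Dntt* and *Polm* therefore swapped order, *Dntt* being 15.7 times *Polm* in the pre-pro-B library and *Polm* 21.4 times *Dntt* in the pro-B library. *Poll*, for polymerase lambda of the same family, had an FPKM of 4.87 and 3.83. *Tdp1*, which clears blocked ends, had an FPKM of 3.96 and 20.1, a log2 change of 2.09.

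Of 13 named genes of break sensing and end protection (of 14 listed, *Shld3* having no row under that name), 2 were higher, 0 were lower and 11 lay within 2-fold, with a median of 0.27. The kinase *Atm* had an FPKM of 28.4 and 28.1, and *Trp53bp1*, for the end protection factor 53BP1, had 15.2 and 18.5. The histone variant gene *H2ax*, whose product is phosphorylated around breaks, had an FPKM of 47.4 in the pre-pro-B library against 239 in the pro-B library, a log2 change of 2.31. *Rif1*, which acts with 53BP1, had 35.9 and 84.1, a log2 change of 1.20.

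The list with the largest share of higher genes was that of alternative end joining, the route used when the classical one fails, with 5 of 7 genes at least 2-fold higher (12.2% of all genes were), 0 lower and a median of 1.28, against -0.14 for all genes. *Lig1* had an FPKM of 5.63 in the pre-pro-B library against 30.8 in the pro-B library, *Xrcc1* 9.86 and 39.8, *Polq* (polymerase theta) 3.77 and 13.6, *Fen1* 27.3 and 67.4, and *Rbbp8* (the resection factor CtIP) 20.1 and 46.5. *Lig1* and *Fen1* also serve DNA replication, and the part of replication in the differences of this list was not tested. *Parp1* (94.0 and 66.5) and *Lig3* (21.1 and 11.3), the other two of the list, lay within 2-fold with negative changes. Of the 3 DNA ligase genes, *Lig1* and *Lig4* were thus at least 2-fold higher and *Lig3* was within 2-fold.

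Of 8 cofactors and turnover factors of the recombinase, 2 were higher, 0 were lower and 6 lay within 2-fold, with a median of 0.24. *Hmgb2*, one of a pair of DNA-bending cofactors of the recombinase, had an FPKM of 7.81 in the pre-pro-B library against 26.7 in the pro-B library, while the other, *Hmgb1*, had 12.7 and 12.2. Copies elsewhere in mm9 were searched for the members only, so the part of such copies in the values of this pair was not tested. *Ccna2*, for the cyclin that with *Cdk2* marks Rag2 protein for destruction as cells enter S phase, had 44.8 and 221. *Cdk2* (49.5 and 76.0) and the ubiquitin ligase subunit *Skp2* (14.8 and 21.8) lay within 2-fold.

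Of 18 transcription factors known to act on the *Rag* locus or its enhancers, 7 were higher by 2-fold or more in pro-B cells (12.2% of all genes were), 3 were lower (19.1% of all genes were) and 8 lay within 2-fold, with a median log2 change of 0.55. The higher ones were *Pax5* (FPKM 1.13 and 239), *Lef1* (1.36 and 218), *Ikzf3* (0.471 and 71.6), *Foxo1* (1.78 and 53.3), *Ebf1*, *Ets1* (47.7 and 164) and *Tcf3* (42.4 and 97.5), and the lower ones *Spi1* (19.1 and 3.34), *Runx1* (64.4 and 16.3) and *Foxo3* (23.2 and 10.2). Of the higher ones, *Ebf1* is the gene disrupted in the pre-pro-B cells, and *Pax5* is also among the committed B lineage markers above. The count of higher genes is therefore not independent of the genotype and the cell type labels. *Foxo1* and *Foxo3*, forkhead factors of the same family, thus differed in opposite directions, with log2 changes of 4.29 and -1.12.

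**Figure D4:**
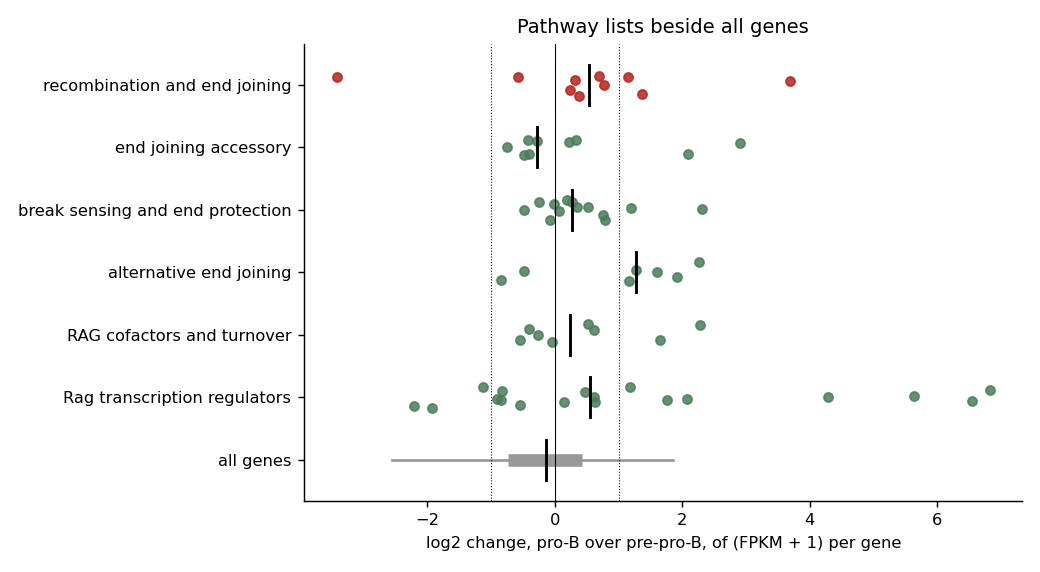
Log2 change of FPKM + 1, pro-B over pre-pro-B, for each of the 10 genes (red) and each gene of the 5 pathway lists (green), with black bars at the medians and dotted lines at 2-fold. The grey bar spans percentiles 25 to 75 of all genes (-0.74 to 0.42) and the grey line percentiles 5 to 95 (-2.55 to 1.86); *Lig4* and *Dntt* lie outside that line, and the alternative end joining list has its median at 1.28.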

How the data were processed

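Total RNA depleted of ribosomal RNA was sequenced as strand-specific single-end reads from 1 library per cell type. The authors trimmed the reads, aligned them to mm9 with TopHat, allowing multiple alignments, and estimated the deposited FPKM and their 95% confidence limits for 30485 RefSeq transcripts with Cuffdiff 2.1.1, using multi-read and bias correction, no scaling between libraries and a dispersion estimated blindly across the libraries. Fragment numbers were computed from the nominal read number of the labels and are approximate, and numbers of aligned reads were not used here. A second deposited table repeats these FPKM beside the authors' own fold changes, p-values and q-values and was not used.

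Of 26580 protein-coding accessions, 26173 were named through a RefSeq gene table of GRCm38.p6, and FPKM were summed per gene. None of the unnamed transcripts overlapped a member's locus. Calls required an FPKM of at least 1 in either library and a 2-fold difference of FPKM + 1. With 1 library per group no test was made. Exon structures are those of GENCODE on mm9, and promoter sequences come from RefSeq (GRCm38.p6), each matched exactly at 1 place of its mm9 chromosome. All 10 members, every gene of the lists past 2-fold and selected others within it were named. The genes, lists and markers were chosen with earlier results of these data known, and the genes within 2-fold that are named were chosen after their values were seen. Computations used Python 3.11.15, pandas 2.3.3, numpy 2.4.6, matplotlib 3.10.9 and minimap2 2.31. The calling code was run on simulated data with little noise and planted changes larger than the threshold. That run checks the code and does not measure the error of the calls. Genes as low as *Lig4* and *Nhej1* in the pre-pro-B library were left out of it.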

Additional observations from a re-analysis of the deposited data

How the results depend on the processing

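Each of the 10 genes kept the sign of its change under the 7 alternatives of pseudocount, scaling, filter and transcript choice, in 69 of 69 values; *Dntt* gave none where both libraries had to reach an FPKM of 1, so that the count of lower members became 0 there. Log2 changes ranged from 3.68 to 4.59 for *Lig4*, from -4.64 to -3.35 for *Dntt*, from 1.29 to 1.45 for *Rag1*, from 1.15 to 1.46 for *Nhej1*, from -0.68 to -0.49 for *Rag2* and from 0.30 to 0.95 for *Dclre1c*, where 0.95 came from the most abundant transcript alone. The values of 4.59 for *Lig4* and -4.64 for *Dntt* came without a pseudocount. At a threshold of 1.5-fold the count of higher members was 5 instead of 3, with *Xrcc5* and *Xrcc6* added, and that of lower genes over the 5 pathway lists was 8 instead of 3. Scaling to TPM moved the median change of all genes from -0.14 to -0.24, and scaling by the median ratio moved it to -0.06. No member's intervals lay apart with or without the filter on low FPKM. No paired analysis was possible because each cell type has 1 library.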

Other observations

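The nearest genes on either side of each of the 10, by RefSeq gene order, were looked up after the values of the members were seen. Of 18 such neighbours, 8 had an FPKM of at least 1 in either library. Of these 8, 2 (*Blnk* and *Suv39h2*) were past 2-fold upward in pro-B cells (12.2% of all genes were) and the other 6 were not. *Blnk*, the neighbour of *Dntt* and an adaptor of B cell receptor signalling, had an FPKM of 1.83 in the pre-pro-B library against 147 in the pro-B library, opposite in direction to *Dntt*. *Abhd13*, next to *Lig4*, had 25.9 and 38.6, a log2 change of 0.56 beside the 3.68 of *Lig4*. *Traf6*, on the other side of *Rag1* from *Rag2*, had 27.0 and 49.5. *Iftap*, on the other side of *Rag2*, had 0.559 and 0.966. *Suv39h2*, a histone methyltransferase gene beside *Dclre1c*, had 2.55 and 8.71. *Mcm4*, a replication licensing gene next to *Prkdc*, had 57.9 and 117, while *Prkdc* itself had 16.6 and 19.7. The log2 change of *Mcm4*, taken on FPKM + 1, rounds to 1.00 and fell just short of 2-fold.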
